A study of Mus musculus with 16 samples.

Results

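Secretory IgA (SIgA) is polymeric IgA that the polymeric immunoglobulin receptor, encoded by Pigr, carries across epithelial cells into milk and into the gut lumen. A suckling mouse receives passive SIgA from its mother's milk, whereas active SIgA is transported by the receptor of the mouse itself. Dextran sulfate sodium (DSS) in drinking water injures the colonic epithelium, and the injured colon is known for loss of differentiated absorptive cells, induction of antimicrobial proteins and entry of neutrophils. The comparison described here asks whether the transcript response to DSS depended on passive SIgA in mice labelled negative for active SIgA.

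It rests on the 8 arrays labelled negative for active SIgA, of 16 arrays in the series. All carried RNA of isolated colonic epithelial cells from Pigr-/- offspring on a C57BL/6 background, 70 days old and gender-matched. Offspring with passive SIgA had Pigr+/- dams and offspring without it had Pigr-/- dams. Each kind was either left untreated or given 2% DSS for 8 days, which the labels class as colitis. This gave 4 groups of 2 arrays, and each array carried equal amounts of RNA from 3 mice, thus 6 mice per group. All 4 groups shared the offspring genotype and the label negative for active SIgA, and differed in the dam's genotype and in DSS. The other 8 arrays came from Pigr+/- offspring of the same 2 kinds of dam, with and without DSS. Dam genotype, litter and passive SIgA cannot be told apart in this design. The labels do not name the litter of each mouse, and the sources used here do not give what the Pigr allele deletes.

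Values were log2 intensities, and 19938 genes were tested. A DSS effect is DSS minus untreated, and the interaction is the DSS effect without passive SIgA minus the DSS effect with it. An interaction below 0 therefore means that DSS moved the gene lower, or less far up, in offspring without passive SIgA. Calls were made at an adjusted p under 0.05 in a limma fit of all 16 arrays. Pigr itself measured 11.34 to 11.70 in the 8 arrays of Pigr-/- offspring and 12.18 to 12.46 in the 8 arrays of Pigr+/- offspring, with no overlap. Its signal in Pigr-/- offspring was thus still far above the medians of those arrays, 6.97 to 7.06, and the probe set could not be placed inside or outside the deleted part. It therefore checks the genotype labels by order and does not show loss of the transcript. Of 15 measured markers of colonic epithelium, 15 lay above the array median in each of the 8 arrays. Replicates of a group correlated at 0.9946 to 0.9957 over genes. The highest correlation of each of the 8 arrays with any array of another group, Pigr+/- arrays included, was 0.9945 to 0.9966. As a maximum over many arrays, this does not show whether replicates were more alike than arrays of different groups in general. The untreated arrays positive for both kinds of SIgA stood apart, with a mean of 5.25 and 5.41 over 1290 chemosensory receptor and keratin-associated genes against 4.46 to 4.66 in the 8 arrays compared here. That group is not part of the interaction, and enters only the estimate of spread. Without it and 1 more untreated Pigr+/- array that lay with it on the first principal component, the interaction still called 0 genes.

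No gene was called for the interaction, 0.0% of 19938, although DSS changed 394 genes on one side and 223 on the other. The smallest adjusted p was 0.478. At an unadjusted p under 0.05, 851 genes (4.27%) were counted, 354 of them with a higher interaction (1.78%) and 497 with a lower one (2.49%). The median interaction over all genes was -0.02, and 55.1% of genes lay below 0. The median standard error was 0.21, and the median 95% interval reached 0.46 log2 to either side, or 1.37-fold. For 18577 genes (93.2%) the whole interval lay within 1 log2 unit of 0. That share covers all genes, of which few were called for DSS. Genes strongly raised by DSS could have wider intervals, such as Acod1 from -0.98 to 1.23.

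In offspring with passive SIgA, DSS changed 394 genes (1.98%), with 178 higher (0.893%) and 216 lower (1.08%). In offspring without passive SIgA, 223 genes changed (1.12%), with 98 higher (0.492%) and 125 lower (0.627%). The 132 genes called on both sides made up 33.5% of the first list and 59.2% of the second, and all 132 moved the same way. Over all genes the DSS effects, which rest on different arrays, had a Pearson correlation of 0.54, given as a description over 19938 genes that are not independent. The difference in the counts is no test of a difference in response, for which the interaction stands. Without 1 of their own 4 arrays, the counts were 107 to 186 with passive SIgA and 54 to 86 without it.

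Clca4b, Acod1 and Ccl3 were among the 5 genes most raised by DSS on each side. Clca4b, which belongs to a family of chloride channel regulators, measured 8.14 and 7.78 in untreated mice and 11.83 and 11.92 after DSS with passive SIgA. Without passive SIgA it measured 7.85 and 8.53 untreated, and 11.73 and 11.07 after DSS. Treated and untreated arrays were far apart on both sides, and the rise was 3.91 ± 0.29 (SE) with and 3.22 ± 0.29 without passive SIgA (adjusted p 5.9e-05 and 0.000237). Acod1, which makes the antimicrobial metabolite itaconate, rose by 2.96 and 3.08 (adjusted p 0.000868 and 0.0013). Ccl3, a chemokine that attracts myeloid cells, rose by 2.68 and 3.11 (adjusted p 0.000248 and 0.000208). Their interactions were -0.70, 0.12 and 0.43, with intervals from -1.60 to 0.20, -0.98 to 1.23 and -0.41 to 1.27. Srgn, the proteoglycan serglycin of haematopoietic cell granules, rose by 2.09 with and 3.28 without passive SIgA (adjusted p 0.000656 and 4.12e-05). Its arrays after DSS read 10.21 and 10.31 with passive SIgA and 10.68 and 10.18 without, and overlapped. The untreated arrays did not, at 8.20 and 8.14 with and 7.15 and 7.15 without it, so that the interaction of 1.19 ± 0.34 lay in the untreated arrays.

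Among genes lowered by DSS, Slc37a2, a sugar phosphate transporter of absorptive cells, fell by 2.20 with and by 1.57 without passive SIgA (adjusted p 2.53e-05 and 0.000237). Slc34a2, a sodium phosphate cotransporter, fell by 1.68 and 1.63 (adjusted p 0.00553 and 0.00987), and its interaction was 0.04 ± 0.38. Nxpe2 fell by 2.06 and 1.08 (adjusted p 0.000131 and 0.0177). Ttr, the thyroid hormone carrier transthyretin, fell by 1.78 with passive SIgA (adjusted p 0.000656), and its effect without it was -0.88 (adjusted p 0.0669). The arrays of Ttr after DSS read 7.99 and 8.07 with and 8.94 and 8.87 without passive SIgA, whereas the untreated arrays, at 9.72 and 9.91 against 9.61 and 9.96, overlapped.

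**Figure D1:**
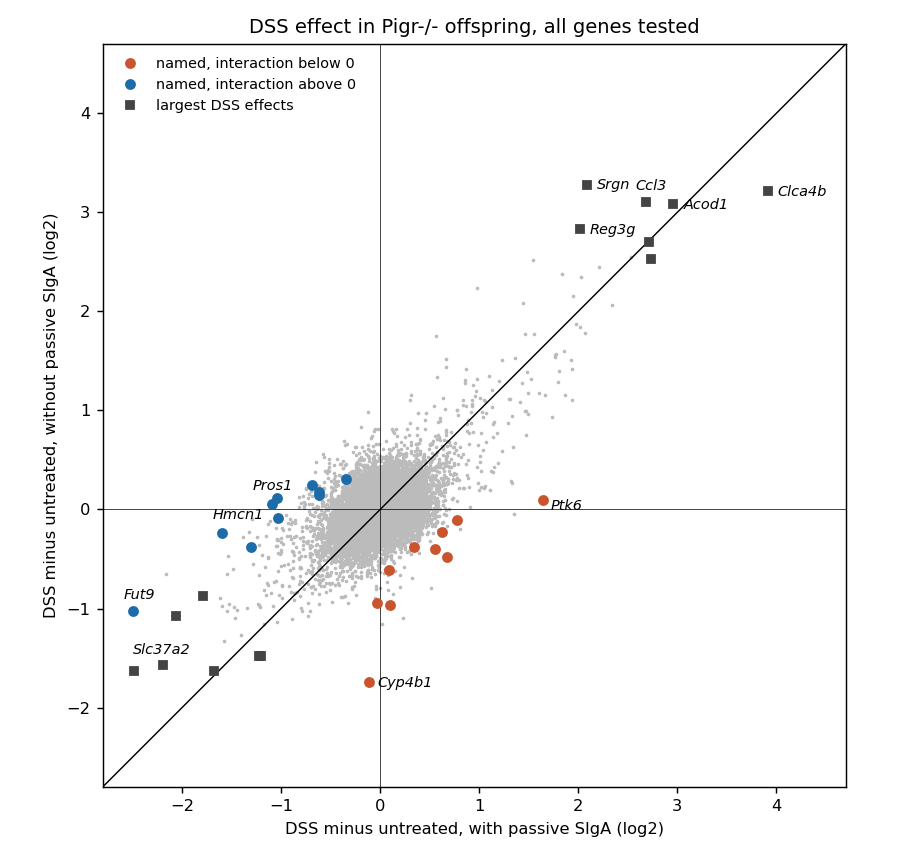
DSS effect of each of 19938 genes in Pigr-/- offspring with passive SIgA (x axis) against that without it (y axis), both as log2 differences of group means; the diagonal marks equal effects. Cyp4b1 (-0.11 and -1.74) and Ptk6 (1.64 and 0.10) lie far below the diagonal, and Hmcn1 (-1.60 and -0.24) and Fut9 (-2.49 and -1.02) lie above it.

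Since no gene passed, the 20 genes described next are those with the smallest p, 10 in each direction, among genes outside the dimmest 30% of the array. A further condition was that the 4 differences between single DSS and untreated arrays without passive SIgA all lay on one side of the 4 with it. Over all genes, 11.6% met that condition with a lower interaction and 7.37% with a higher one. Their adjusted p-values ran from 0.478 to 0.902, so each is given as a measurement that did not pass the test. None was called under any of the 18 alternative settings run for it. That condition largely fixes the direction under those settings, so a kept direction is no sign of stability.

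In the lower direction, Cyp4b1, a cytochrome P450 monooxygenase, had the smallest p. With passive SIgA it measured 8.43 and 8.27 untreated, and 8.22 and 8.26 after DSS. Without passive SIgA it measured 9.14 and 9.08 untreated, and 7.57 and 7.16 after DSS. The arrays without passive SIgA were thus the highest before and the lowest after DSS, with no overlap on either occasion. Cyp4b1 fell by 1.74 without passive SIgA (adjusted p 0.000831), and its effect with it was -0.11. The interaction was -1.63 ± 0.27, or 3.09-fold, with an interval from -2.22 to -1.04 (adjusted p 0.478).

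A further 3 genes of this direction fell without passive SIgA. Tmigd1, an adhesion protein of the epithelial brush border, measured 9.34 and 9.14 untreated and 9.42 and 9.27 after DSS with passive SIgA. The corresponding arrays without passive SIgA read 9.55 and 9.59 untreated, and 8.53 and 8.68 after DSS. The DSS arrays without passive SIgA were the lowest of the 8, and the fall of 0.96 on that side passed the test (adjusted p 0.00514). Hkdc1, a hexokinase-like protein, fell by 0.94 without passive SIgA (adjusted p 0.00262), from 8.99 and 8.96 to 8.05 and 8.02. With passive SIgA its untreated arrays read 8.43 and 8.33 and its DSS arrays 8.22 and 8.48, which overlapped. Vegfa, the vascular endothelial growth factor, fell by 0.61 without passive SIgA (adjusted p 0.0177), and its effect with it was 0.09. The interactions were -1.07 ± 0.20 for Tmigd1, -0.91 ± 0.18 for Hkdc1 and -0.70 ± 0.16 for Vegfa.

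Another set of these genes was raised by DSS with passive SIgA. Ptk6, a tyrosine kinase of the gut epithelium, measured 7.51 and 7.51 untreated and 9.27 and 9.04 after DSS with passive SIgA. Without it the untreated arrays read 7.69 and 7.31 and the DSS arrays 7.85 and 7.34. Only the DSS arrays with passive SIgA stood out. Ptk6 rose by 1.64 there (adjusted p 0.00146), against 0.10 without passive SIgA, and the interaction was -1.54 ± 0.31 with an interval from -2.21 to -0.87. Cpe, the carboxypeptidase that trims prohormones in endocrine cells, rose by 0.78 with passive SIgA (adjusted p 0.0109), and its effect without it was -0.10. Ly6m, a protein of the Ly6 family, rose by 0.68 with passive SIgA (adjusted p 0.0438), and its effect without it was -0.48. Fam162a, a mitochondrial protein induced by hypoxia, rose by 0.63 with passive SIgA (adjusted p 0.0231), against -0.23 without. For Ly6m and Fam162a the untreated arrays without passive SIgA lay above those with it and the DSS arrays below: Ly6m read 10.23 and 10.31 against 10.89 and 11.03 untreated, and 10.93 and 10.96 against 10.34 and 10.62 after DSS. Fkbp5, a glucocorticoid-induced chaperone, had DSS effects of 0.55 with and -0.39 without passive SIgA, and Fem1al had 0.34 and -0.38; neither gene passed on either side.

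In the higher direction, Pros1, the anticoagulant protein S, measured 7.11 and 6.91 untreated and 6.03 and 5.81 after DSS with passive SIgA. Without it the untreated arrays read 5.96 and 6.19 and the DSS arrays 5.91 and 6.35. Only the untreated arrays with passive SIgA stood apart, and Pros1 fell by 1.09 on that side (adjusted p 0.00204). Its effect without passive SIgA was 0.06, and the interaction was 1.15 ± 0.21 with an interval from 0.68 to 1.61. Hsd11b2, the enzyme that inactivates corticosterone in cells that respond to aldosterone, read 11.86 and 11.73 untreated and 11.17 and 11.18 after DSS with passive SIgA. Without it the untreated arrays were at 11.05 and 11.19 and the DSS arrays at 11.35 and 11.19. Here too the untreated arrays with passive SIgA were the highest and did not overlap the others. Hsd11b2 fell by 0.62 with passive SIgA (adjusted p 0.00634), and its effect without it was above 0, at 0.15, for an interaction of 0.77 ± 0.14.

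Hmcn1, an extracellular matrix protein, fell by 1.60 with passive SIgA (adjusted p 0.000687), from 10.45 and 10.44 to 9.04 and 8.65. Its arrays without passive SIgA lay between, at 9.43 and 9.95 untreated and 9.61 and 9.30 after DSS, which overlapped. Fut9, a fucosyltransferase that makes Lewis x glycans, fell by 2.49 with passive SIgA (adjusted p 0.000131), from 7.79 and 7.79 to 5.34 and 5.25. Without it Fut9 measured 6.89 and 7.75 untreated and 6.33 and 6.27 after DSS, an effect of -1.02 (adjusted p 0.0652). The DSS arrays with passive SIgA were the lowest, by about 1 log2 unit. The interactions were 1.36 ± 0.27 for Hmcn1 and 1.47 ± 0.34 for Fut9. Timp4, an inhibitor of metalloproteinases, fell by 1.31 with passive SIgA (adjusted p 0.000222), against -0.38 without. Tent5c, a poly(A) polymerase, fell by 1.03 with passive SIgA (adjusted p 0.00469), and its effect without it was -0.09. Ctse, the aspartic protease cathepsin E, fell by 1.04 with passive SIgA (adjusted p 0.0152), and its effect without it was above 0, at 0.11. Txndc12, a thioredoxin-like protein of the endoplasmic reticulum, fell by 0.62 with passive SIgA (adjusted p 0.0409), and its effect without it was above 0, at 0.18. Chpt1, which makes phosphatidylcholine, had effects of -0.69 and 0.25, and Zfp456, a zinc finger protein, of -0.34 and 0.31.

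**Figure D2:**
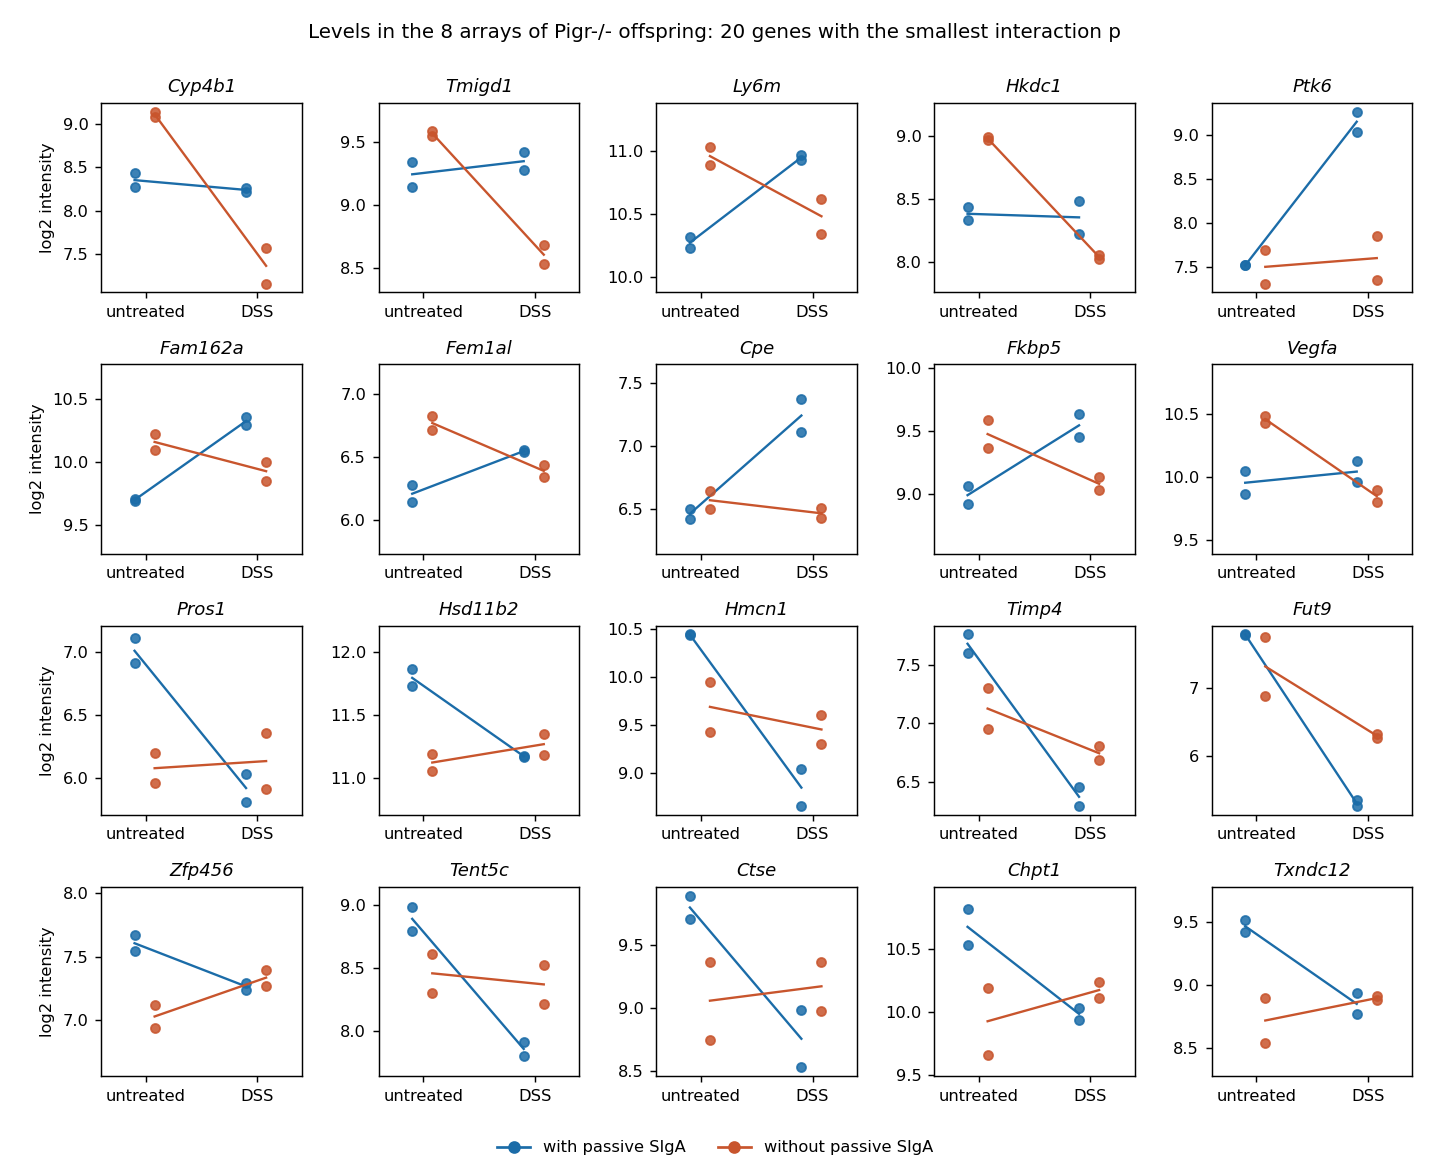
Log2 intensity of the 20 genes in the 8 arrays of Pigr-/- offspring, untreated and after DSS, with passive SIgA (blue) and without it (orange); points are arrays and lines join group means. In the upper 2 rows Cyp4b1, at 9.14 and 9.08, starts highest without passive SIgA and ends lowest; in the lower 2 rows genes such as Pros1, at 7.11 and 6.91, start highest with it.

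An interaction can lie in the untreated arrays, in the DSS arrays or in both. Of the 10 higher genes, 10 had opposite signs of the passive SIgA difference (without minus with) before and after DSS, and in 8 the untreated difference was the larger. Of the 10 lower genes, 9 had opposite signs, and in 6 the untreated difference was the larger. Opposite signs follow in part from the choice of genes with a large interaction. DSS was called with passive SIgA in 8 of the 10 higher genes and in 4 of the 10 lower ones, and without it in 0 and 4. Over all genes the shares called were 1.98% with and 1.12% without passive SIgA. The same choice on the same arrays favours genes with a large DSS effect on 1 side, so these counts are no separate result. Over all genes, the passive SIgA difference was called for none in untreated mice, with 1518 genes (7.61%) at an unadjusted p under 0.05 and a smallest adjusted p of 0.0547. After DSS none was called either, with 629 genes (3.15%) and a smallest adjusted p of 0.155. The smallest p in untreated mice belonged to Mtx2, a protein of the outer mitochondrial membrane, at 10.86 and 10.62 with and 9.76 and 9.86 without passive SIgA. After DSS it belonged to Ptk6, and next to Vnn1, the pantetheinase vanin 1. Vnn1 rose by 1.14 with passive SIgA (adjusted p 0.000569), against 0.38 without, and its DSS arrays read 8.38 and 8.68 against 7.74 and 7.75.

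Genes were also ranked by the likeness of their levels to the leading gene of each direction over the 8 arrays. For Cyp4b1 these were Guca2a, with a Pearson r of 0.988, Prss23 with 0.963 and Atp9a with 0.963. Guca2a, the peptide guanylin of mature colonocytes, fell by 0.58 without passive SIgA (adjusted p 0.0207), and its effect with it was -0.09. Its interaction was -0.49 ± 0.15. For Pros1 they were Ppm1k, with r of 0.981, Aadac with 0.970 and Cyp2r1 with 0.968. Aadac, an esterase, fell by 0.82 with passive SIgA (adjusted p 0.0246), and its effect without it was 0.02. These r describe 8 arrays in 4 groups, the genes being picked from all genes for their likeness.

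The gene lists are described by counts and medians, beside the medians over all genes tested, which were -0.02 for the interaction and 0.03 and 0.01 for the DSS effects with and without passive SIgA. Across the 40 lists plotted by their medians, which leave out a glucocorticoid list added later, the median interaction ran from -0.28, for interferon-stimulated genes, to 0.31, for 7 sex-linked genes, which was 0.02 without replicate 1 of the DSS group with passive SIgA. No member of any list was called for the interaction. In bulk RNA, fewer cells of a type and less RNA per cell cannot be told apart.

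**Figure D3:**
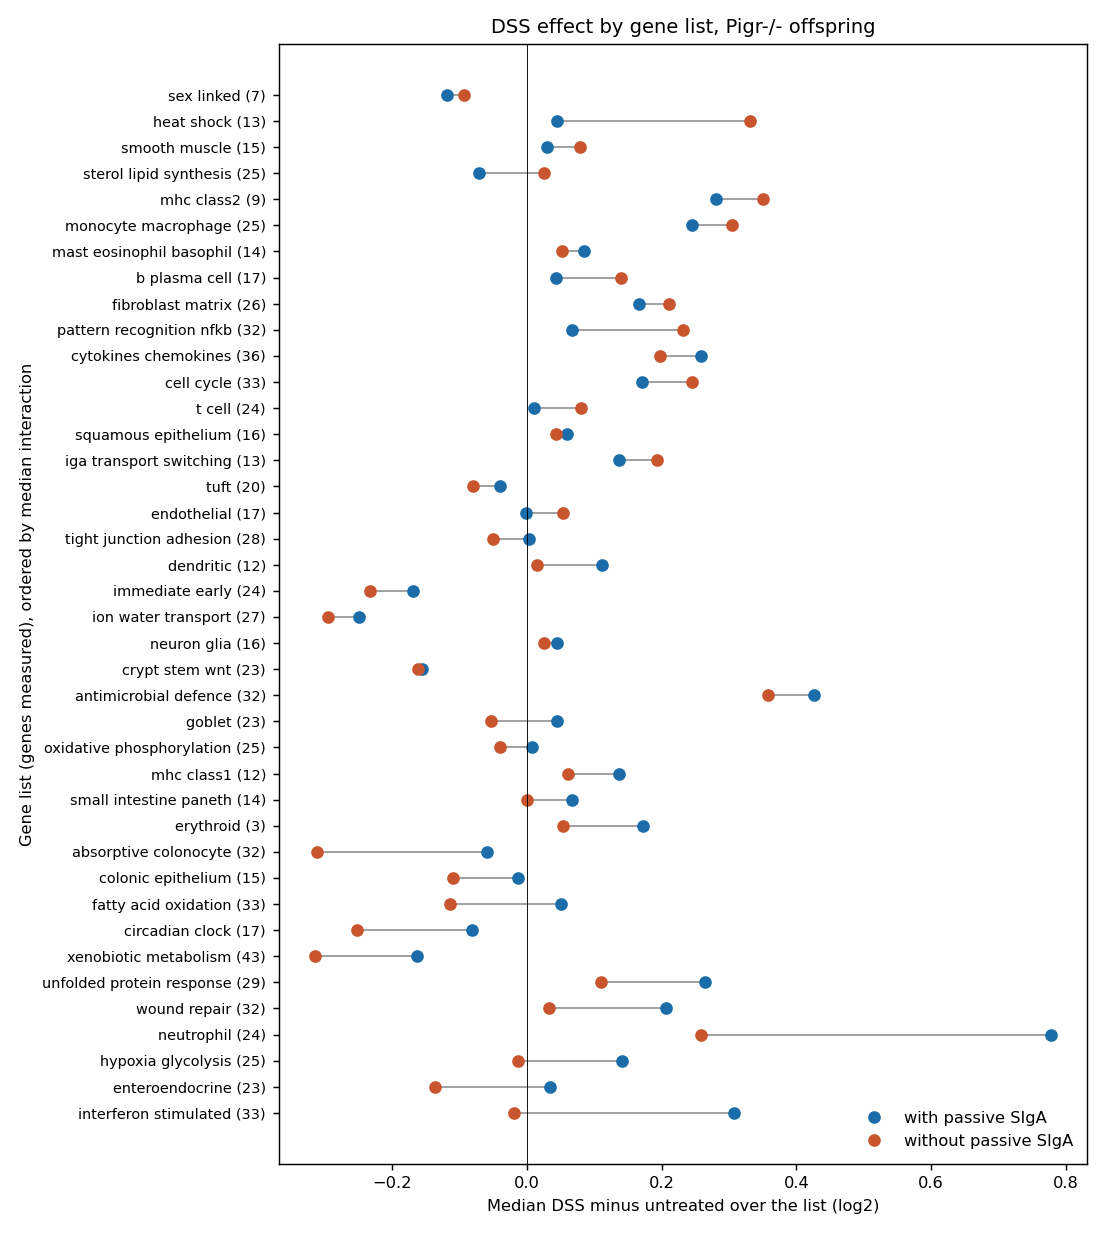
Median DSS effect over each of 40 gene lists in Pigr-/- offspring, in log2 units, with passive SIgA (blue) and without it (orange), ordered by the median interaction of the members; the number of genes measured is in brackets. The widest gap is that of the neutrophil markers, at 0.78 and 0.26, and the heat shock list shows a gap the other way, at 0.04 and 0.33.

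Of 24 neutrophil markers measured, 11 rose after DSS with and 8 without passive SIgA, against 0.893% and 0.492% of all genes. The others did not pass, and 8 of the 24 were among the dimmest 30%. None fell on either side, which is near the shares over all genes, 1.08% with and 0.627% without passive SIgA. The mean over the list was 6.08 and 6.01 untreated and 7.09 and 6.75 after DSS with passive SIgA, and 6.17 and 5.98 untreated and 6.70 and 6.70 after DSS without it. The DSS arrays without passive SIgA lay below those with it, on average by less than the gap between the latter. The median interaction was -0.20, and 18 of 24 markers lay below 0, against 55.1% of all genes. Without replicate 1 of the DSS group with passive SIgA the median was -0.03, and without any other single array between -0.31 and -0.18. At an unadjusted p under 0.05, 3 markers had a lower interaction, against 2.49% of all genes, and 0 a higher one.

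Single members of the list differed in how they behaved. Ly6g lay far above the list mean in untreated arrays, and only 2 of the 24 members lay above the array median in all 8 arrays. Whether the Ly6g signal came from neutrophils was not tested. Ly6g measured 11.87 and 11.75 untreated and 12.51 and 12.65 after DSS with passive SIgA, and 12.28 and 12.18 untreated and 12.38 and 12.25 after DSS without it. The rise of 0.77 with passive SIgA was called (adjusted p 0.0199), the effect of 0.09 without it was not, and the interaction was -0.68 ± 0.22. Mmp9, a gelatinase of neutrophil granules, rose by 1.05 with passive SIgA (adjusted p 0.0113), against 0.21 without, and its interaction was -0.83 ± 0.27. Other listed markers rose on both sides. Cxcr2, the neutrophil chemokine receptor, rose by 1.76 and 1.56, Retnlg by 1.78 and 1.57, and Trem1, an activating receptor of myeloid cells, by 1.98 and 1.87. Their interactions were -0.20 ± 0.33, -0.20 ± 0.29 and -0.11 ± 0.42. No difference between these markers was tested.

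Monocyte and macrophage markers had a median interaction of 0.10 over 25 genes, 14 of which were among the dimmest 30% of the array. Of these 25, 5 rose with and 4 without passive SIgA, against 0.893% and 0.492% of all genes. The sign of the median turned to -0.03 without untreated replicate 2 of the group without passive SIgA, and without any other single array it was 0.01 to 0.16. Itgax, the integrin CD11c, read 5.79 and 5.91 untreated and 5.87 and 5.94 after DSS with passive SIgA, and 5.87 and 5.72 untreated and 6.12 and 6.44 after DSS without it. The DSS arrays without passive SIgA were the highest, but neither DSS effect, at 0.06 and 0.49, was called.

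Class II genes of the major histocompatibility complex, which present peptides to helper T cells, rose in 4 of 9 cases without passive SIgA, against 0.492% of all genes. With passive SIgA 0 of 9 were called higher, against 0.893% of all genes, so that this count is near the share over all genes. The list medians were close, with DSS effects of 0.28 with and 0.35 without passive SIgA and a median interaction of 0.10, or 0.12 to 0.30 with 1 array left out. Cd74, the invariant chain, measured 8.44 and 8.82 untreated and 8.93 and 9.46 after DSS with passive SIgA. Without it the untreated arrays read 6.90 and 6.76 and the DSS arrays 8.64 and 8.54. The low untreated arrays without passive SIgA were the ones apart, as after DSS the arrays differed far less. Cd74 rose by 1.76 without passive SIgA (adjusted p 0.0201), against 0.56 with, and the interaction was 1.19 ± 0.47. H2-Aa rose by 1.44 without passive SIgA (adjusted p 0.0255), H2-Ab1 by 1.12 (adjusted p 0.0252) and H2-Eb1 by 0.97 (adjusted p 0.00273). Their effects with passive SIgA were 0.66, 0.63 and 0.47, and their interactions 0.78 ± 0.40, 0.49 ± 0.31 and 0.50 ± 0.19. In Pigr+/- offspring the same contrast was -0.78 for Cd74, -0.93 for H2-Aa, -0.62 for H2-Ab1 and -0.33 for H2-Eb1, the opposite sign. The Pigr+/- contrast includes the untreated group that stood apart, and the part of that group in the sign was not tested. The three-way term, which tests the difference between the 2 offspring genotypes, was not called for any of the 4 genes.

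With passive SIgA, DSS raised 12 and lowered 1 of 32 genes of antimicrobial defence. Without it, 10 rose and 0 fell. Over all genes 0.893% rose and 1.08% fell with passive SIgA, and 0.492% rose and 0.627% fell without it. The median DSS effects were 0.43 and 0.36, and the median interaction -0.07, or -0.17 to -0.01 with 1 array left out. Reg3b, a C-type lectin that kills bacteria, rose by 2.02 and 2.35, and Nos2, the inducible nitric oxide synthase, by 1.95 and 2.16. Retnlb, a bactericidal product of goblet cells, measured 10.25 and 10.62 untreated and 11.17 and 11.65 after DSS with passive SIgA. Without it the untreated arrays read 8.78 and 9.33, the lowest of the 8, and the DSS arrays 11.37 and 11.22, among those with passive SIgA. Retnlb rose by 2.24 without passive SIgA (adjusted p 0.000644), its effect with it was 0.97 (adjusted p 0.0573), and the interaction was 1.26 ± 0.34. In the other direction, Slpi, an antiprotease, rose by 1.94 with and 1.11 without passive SIgA, for an interaction of -0.83 ± 0.26. Lcn2, the siderophore-binding lipocalin 2, rose by 1.87 with passive SIgA (adjusted p 0.004), and its effect without it was 1.15 (adjusted p 0.0847). Its DSS arrays overlapped, at 8.21 and 7.08 against 7.13 and 6.48.

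Of 36 cytokines and chemokines, 8 rose with and 7 without passive SIgA, against 0.893% and 0.492% of all genes. The median interaction was 0.03, with either sign (-0.01 to 0.15) when 1 array was left out. Cxcl2, which attracts neutrophils, rose by 2.21 and 2.45, and Il1b by 1.84 and 2.37. Il1a rose by 1.54 with passive SIgA (adjusted p 0.0112) and by 2.52 without (adjusted p 0.000831), for an interaction of 0.98 ± 0.40. Its untreated arrays read 6.08 and 5.92 with and 5.42 and 5.46 without passive SIgA, and its DSS arrays 7.61 and 7.47 against 7.98 and 7.95. Those without passive SIgA were thus lower before and higher after DSS, with no overlap.

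Interferon-stimulated genes had the lowest list median, at -0.28. Of 33 members, 27 lay below 0, against 55.1% of all genes. At an unadjusted p under 0.05, 4 had a lower interaction, against 2.49% of all genes. The list median turned on single arrays. The mean over the list was 8.16 and 7.70 untreated with passive SIgA and 8.39 and 7.80 untreated without it, so that replicates differed more than groups. After DSS it was 8.33 and 8.21 with and 8.11 and 8.24 without passive SIgA. Without untreated replicate 2 of the group with passive SIgA the median was 0.02, and without untreated replicate 1 of the group without it 0.01. Leaving out any other single array gave -0.61 to -0.22. Irf1, an interferon-induced transcription factor, read 10.95 and 10.94 untreated and 11.60 and 11.32 after DSS with passive SIgA, and 11.90 and 11.41 untreated and 11.47 and 11.57 after DSS without it. Its interaction of -0.65 ± 0.24 lay mainly in the untreated arrays, and neither DSS effect was called.

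Of 32 absorptive colonocyte genes, 8 fell and 2 rose with passive SIgA, and 8 fell and 1 rose without it. Over all genes 1.08% fell and 0.893% rose with passive SIgA, and 0.627% fell and 0.492% rose without it. Most members did not pass on either side. The median DSS effect was -0.06 with and -0.31 without passive SIgA, and the median interaction -0.12. Without replicate 2 of the DSS group with passive SIgA that median was -0.03, without replicate 1 of it -0.25, and without any other single array -0.21 to -0.06. At an unadjusted p under 0.05, 5 members had a lower interaction, among them Tmigd1, Guca2a and Clca4a, and 1 a higher one, Slc37a2. Over all genes these shares were 2.49% and 1.78%. Clca4a had DSS effects of 0.63 with and -0.13 without passive SIgA, neither of them called. The transport list, with 27 genes, had 6 lower with passive SIgA and 7 lower and 1 higher without it. Over all genes 1.08% were lower with passive SIgA, and 0.627% lower and 0.492% higher without it. The median interaction of the list was -0.05, which took either sign (-0.14 to 0.09) with 1 array left out. Aqp1, a water channel, fell by 0.78 without passive SIgA (adjusted p 0.0364), and its effect with it was -0.04. Aqp4 rose by 0.73 without passive SIgA (adjusted p 0.00748), and its effect with it was 0.25. Their interactions were -0.73 ± 0.23 and 0.48 ± 0.16.

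Of 25 genes of hypoxia and glycolysis, 22 lay below 0, with a median interaction of -0.21. Besides Vegfa, Adm, the vasodilator peptide adrenomedullin, had an interaction of -0.76 ± 0.28, and Hk2, a hexokinase, rose by 0.61 with passive SIgA (adjusted p 0.0187), against 0.24 without. Wound repair genes had a median interaction of -0.19, and 28 of 32 lay below 0. Of the 32, 3 rose with and 0 without passive SIgA, against 0.893% and 0.492% of all genes. Plat, the tissue plasminogen activator, rose by 1.23 with passive SIgA (adjusted p 0.00634), against 0.59 without. Over all genes 55.1% lay below 0. The members of a list are not independent, and the shares of the 2 lists were not tested against it.

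Enteroendocrine genes had a median interaction of -0.24, and -0.32 to -0.15 with 1 array left out. Of the 23, 18 lay below 0, against 55.1% of all genes. Next to Cpe stood Tph1, the enzyme of serotonin synthesis, at -0.52 ± 0.24, and Chga, the granule protein chromogranin A, at -0.40 ± 0.21. Neither was called for DSS on either side. Among fatty acid oxidation genes, with a median of -0.13, or -0.23 to -0.10 with 1 array left out, Pdk4, a kinase that shuts off pyruvate dehydrogenase, measured 10.02 and 9.78 untreated and 10.12 and 10.08 after DSS with passive SIgA. Without it Pdk4 measured 10.13 and 10.20 untreated and 9.15 and 9.61 after DSS, the lowest of the 8 arrays. The fall of 0.78 without passive SIgA was called (adjusted p 0.0366), and the interaction was -0.98 ± 0.23. Of 43 genes of xenobiotic metabolism, 28 lay below 0, against 55.1% of all genes. Their median was -0.14, or -0.19 to -0.06 with 1 array left out. Gstm1, a glutathione transferase of that list, fell by 0.92 with passive SIgA (adjusted p 0.00976), against -0.20 without.

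Sterol and lipid synthesis genes had a median interaction of 0.12. At an unadjusted p under 0.05, 4 of 25 had a higher interaction, against 1.78% of all genes. These were Scd1, Scd2, Fads1 and Fads2, all of them fatty acid desaturases. Scd1 measured 9.24 and 9.22 untreated and 7.64 and 8.23 after DSS with passive SIgA, and 8.51 and 8.72 untreated and 8.56 and 8.47 after DSS without it. The arrays without passive SIgA lay between the others. Scd1 fell by 1.29 with passive SIgA (adjusted p 0.00707), against -0.10 without, for an interaction of 1.20 ± 0.31. The interactions of the other members were 0.84 ± 0.22 for Scd2, 0.67 ± 0.22 for Fads1 and 0.52 ± 0.16 for Fads2. Without replicate 1 of the DSS group with passive SIgA the list median was -0.01, and otherwise 0.08 to 0.23.

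The heat shock list had a median interaction of 0.27, and 0.18 to 0.37 with 1 array left out. Of its 13 members 10 lay above 0, against 8952 of all 19938 genes. The mean of the list was 10.30 and 10.17 untreated with passive SIgA and 10.03 and 9.82 untreated without it, and 10.44 and 10.22 against 10.21 and 10.34 after DSS. The untreated arrays without passive SIgA were the lowest of the 8. Hspa1a, an inducible chaperone, read 11.89 and 11.41 in those arrays and 12.07 to 12.35 in the other 6, and its interaction was 0.59 ± 0.25. No member was called for DSS on either side, which is near the shares over all genes, 1.98% with and 1.12% without passive SIgA.

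**Figure D4:**
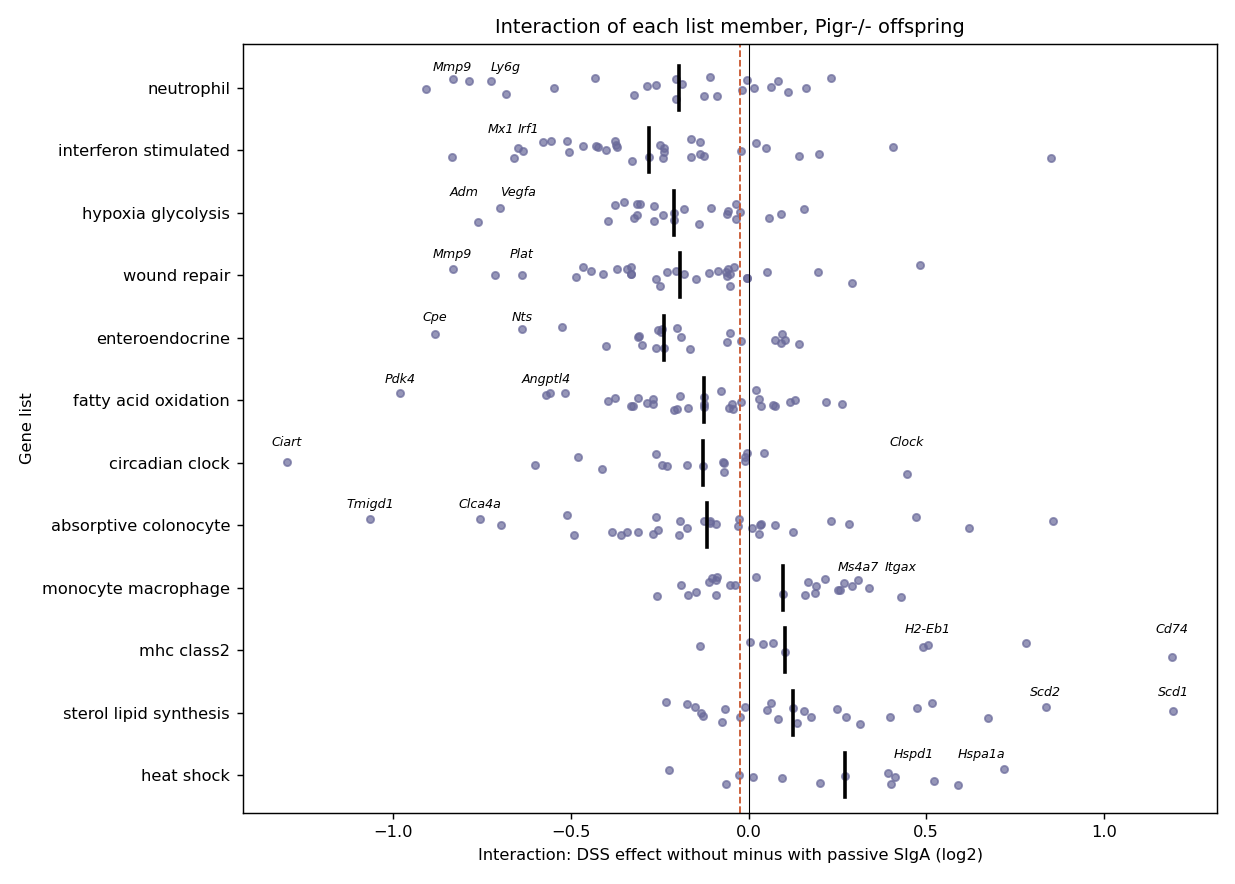
Interaction of each measured member of 12 gene lists in Pigr-/- offspring (log2, DSS effect without minus with passive SIgA); points are genes, black bars list medians, the solid line 0 and the dashed line the median over all genes, -0.02. Members scatter widely within each list, as Cd74 at 1.19 and H2-Eb1 at 0.50 show for class II genes.

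Genes of IgA transport and class switching had a median interaction of -0.01 over 13 measured genes, and of -0.08 to 0.20 with 1 array left out. Il5ra, a receptor subunit for the B cell and eosinophil cytokine IL-5, rose by 1.34 with passive SIgA (adjusted p 0.000656), its effect without it was 0.63 (adjusted p 0.0867), and the interaction was -0.71 ± 0.22. Tgfbr2, a receptor of the cytokine that directs switching to IgA, had DSS effects of 0.47 and -0.15, neither of them called. Of 17 measured B and plasma cell genes none was called for DSS on either side, and 7 were among the dimmest 30%. Over all genes 1.98% were called with and 1.12% without passive SIgA, so that a count of none is near those shares. Pigr had an interaction of -0.01 ± 0.15.

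The Pigr+/- arrays gave a way to choose DSS genes without the arrays compared here. With a fit of those 8 arrays alone, 383 genes were higher after DSS on average. In Pigr-/- offspring their median DSS effect was 0.53 with and 0.46 without passive SIgA, their median interaction was -0.07, and 40.5% had the larger effect without it. Over all genes, 8952 of 19938 had an interaction above 0. The 383 genes moved the same way in 376 cases with and 374 without passive SIgA. Of 644 genes lower after DSS in Pigr+/- offspring, only 61.2% with and 57.8% without passive SIgA moved the same way, with medians of -0.07 and -0.04. The untreated Pigr+/- arrays that stood apart enter this choice. From the Pigr+/- pair without passive SIgA alone, which avoids that group, 31 genes were higher and 7 lower. The 31 had median effects of 1.76 with and 1.53 without passive SIgA. Of the 31, 15 (48.4%) had the larger effect without passive SIgA. The 7 had medians of -1.58 and -1.08, and in 0 of 7 was the fall larger without passive SIgA. Over all genes, 55.1% had an interaction below 0.

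The same contrast in Pigr+/- offspring, who had active SIgA, was computed on different arrays. There 214 genes were called (1.07%), 204 of them higher (1.02%) and 10 lower (0.0502%), and the contrast includes the untreated group that stood apart. Over all genes the interactions of the 2 offspring genotypes had a correlation of 0.05. Of the 10 lower genes 6 had the same sign in Pigr+/- offspring, with a median of -0.18, and of the 10 higher genes 4, with a median of -0.22. Cyp4b1 was at -0.36 ± 0.27 and Ptk6 at -0.58 ± 0.31, against -0.64 ± 0.27 for Hmcn1 and 0.14 ± 0.21 for Pros1. None of the 20 was called in Pigr+/- offspring or for the three-way term, the difference between the interactions, which called 12 genes in all (0.0602%).

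**Figure D5:**
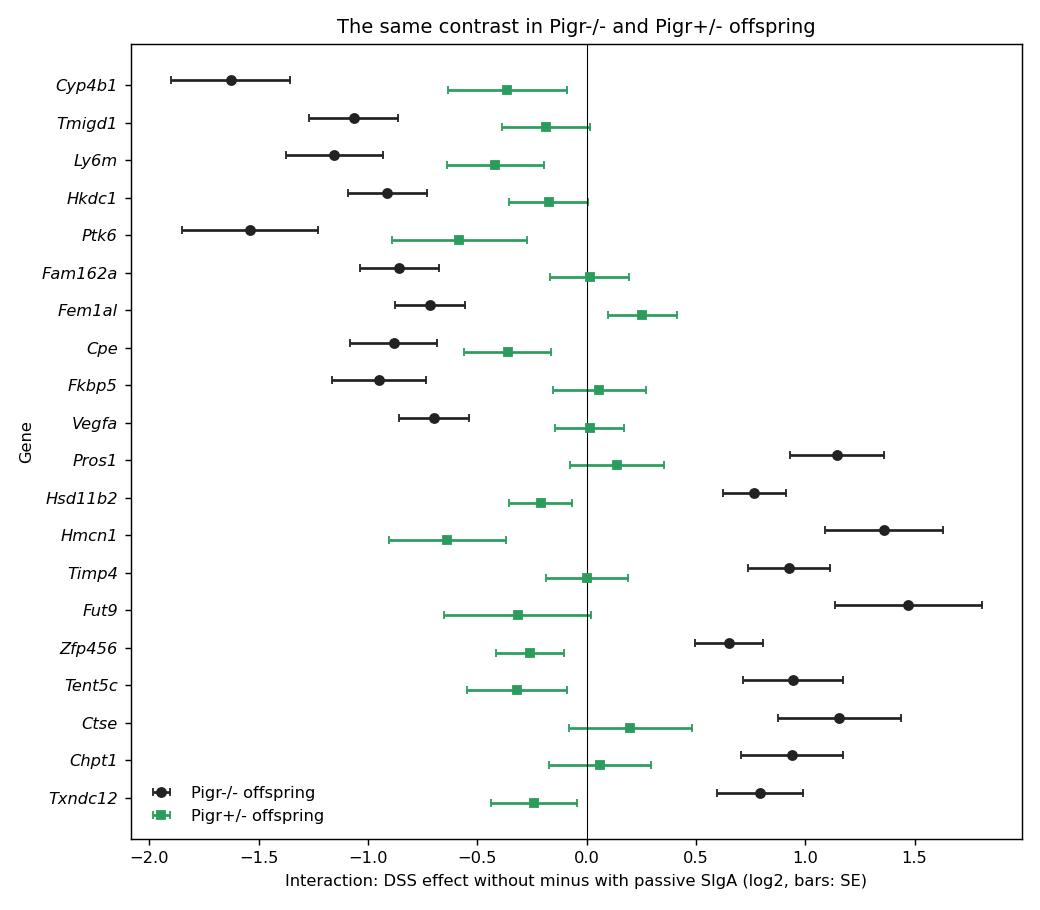
Interaction of the 20 genes (log2 ± SE) in Pigr-/- offspring, from which they were chosen (black circles), and in Pigr+/- offspring (green squares). The values in Pigr+/- offspring lie nearer 0, between -0.64 and 0.26. Since the genes were chosen for their interaction in the Pigr-/- arrays, values from other arrays tend to lie nearer 0, and this is no separate result.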

How the data were processed

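The values are log2 intensities on an Affymetrix whole-transcript array, deposited by the authors after RMA, per the submitters' processing notes; no source used here gives its version. The deposited log2 table held 35557 probe sets in 16 arrays. Of these, 21789 named 1 gene and were used, with the probe set of the highest mean where a gene had several (999 genes), which left 19938 genes. Names were updated with the RefSeq table of GRCm38.p6.

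A mean per group was fitted to all 16 arrays with limma 3.58.1 in R 4.3.3 (8 residual and 5.03 prior degrees of freedom), and p-values, two-sided, were adjusted over all genes by the Benjamini-Hochberg method. RMA equalises array distributions and compresses changes of dim probes. Each array is a pool of 3 mice, so that p-values measure the spread between pools, and their number limits the precision. The script was tested on simulated data.

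The 8 arrays, the gene lists and the tests were chosen with earlier results of these data known. The 10 genes with the smallest interaction p in each direction were named, outside the dimmest 30% and with array differences that did not overlap. Unnamed, predicted, small RNA and chemosensory receptor genes were set aside from naming. For DSS effects the 5 highest and 5 lowest of each side could be named, and of a list the 4 members at most that had the smallest interaction p; other list members were picked after their values were seen. Alternatives were limma's trend and array weights, a replicate block, a fit of the 8 arrays, centring, quantile normalization, probe set and dim gene filters, thresholds and leaving out arrays. Raw intensities were not analysed here.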

Additional observations from a re-analysis of the deposited data

Results flagged for a closer look

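The interaction in Pigr-/- offspring differed from that in Pigr+/- offspring for 12 genes (0.0602%) by the three-way term of the limma fit, all 12 lower in Pigr-/- offspring. Of the 12, 10 were among the dimmest 30% of genes and 10 were olfactory receptor, unnamed, predicted or microRNA genes by symbol. Zfp600 and Mucl2 were the remaining ones. Zfp600 measured 2.56 to 3.02 in the 8 arrays of Pigr-/- offspring, and 5.65 and 5.57 in the untreated arrays with passive and active SIgA. The other Pigr+/- arrays read 2.44 to 2.82. Mucl2 measured 4.36 to 4.74, against 5.74 and 5.78, and 4.45 to 4.83 in the other Pigr+/- arrays. In all 12 genes, both untreated arrays with passive and active SIgA, the group that stood apart, read above every other array. That group enters the Pigr+/- side of the term, and its part in these calls was not tested. The interaction of Mucl2 was -0.29 ± 0.17 in Pigr-/- and 1.32 in Pigr+/- offspring. With the dimmest 30% of genes left out, no gene was called for this term, and 761 had an unadjusted p under 0.05.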

How the results depend on the processing

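The interaction called 0 genes under each of the 21 alternatives run, with 534 to 1488 genes at an unadjusted p under 0.05 and a smallest adjusted p between 0.124 and 1.0. The DSS count with passive SIgA, 394, was 698 with array weights, 642 at an adjusted p under 0.1 and 107 to 341 with 1 array left out. The count without passive SIgA, 223, was 343 with limma's trend, 547 with array weights, 383 at an adjusted p under 0.1, 117 over all probe sets and 54 to 199 with 1 array left out. For the passive SIgA difference in untreated mice, 0 became 5 with the trend, 7 with array weights, and 1 in each of the fits of 8 arrays, of centred arrays, without the dimmest 30% and at an adjusted p under 0.1. After DSS it became 4 with array weights, and 0 to 1 with 1 array left out. In Pigr+/- offspring 214 became 78 with array weights, 511 with centring, 356 with quantile normalization (300 higher and 56 lower), 5 without the dimmest 30% and 1093 over all probe sets. The three-way count of 12 became 76, 58 (9 higher and 49 lower), 0 and 622 under the last 4 of these, and 46 at an adjusted p under 0.1. The causes were not tested. The fit over all probe sets and that without the 3 arrays that stood apart were chosen after seeing the data. Replicate numbers could not be shown to pair samples, and a shared litter or day was not tested: 6 correlations of same-numbered deviations ran from -0.24 to 0.41, and 3 were over 0.1. With the replicate number as a block, the interaction called 0 genes, the DSS effects 480 and 247, the passive SIgA differences 0 and 0, the Pigr+/- contrast 253 and the three-way term 18. With 1 array left out of a group, the other was assumed to vary like the remaining groups.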

Other observations

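Circadian clock genes had a median difference without minus with passive SIgA of 0.44 in untreated mice and 0.18 after DSS, against 0.01 and -0.02 over all genes. No gene was called for that difference, and it was not tested against the response. The median interaction was -0.13 over 17 genes, and -0.24 to -0.05 with 1 array left out. Of the 17, 15 lay below 0, against 55.1% of all genes. Dbp, an output gene of the clock, measured 8.72 and 7.62 untreated and 7.29 and 8.95 after DSS with passive SIgA, and 9.26 and 9.80 untreated and 9.34 and 8.42 after DSS without it. Replicates of one group thus differed by more than 1 log2 unit in places. Ciart, a repressor of the clock, had an interaction of -1.30 ± 0.65 and Clock one of 0.44 ± 0.18. The sources used here do not give the hour of sampling, and the part of the clock genes in other results was not tested.

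Cell cycle genes had a median passive SIgA difference of -0.36 in untreated mice and -0.26 after DSS, with a median interaction of 0.03 over 33 genes, or -0.08 to 0.14 with 1 array left out. Genes known to respond to glucocorticoids, a list of 18 measured genes put together after values such as those of Fkbp5 and Hsd11b2 had been seen, had a median interaction of -0.20, or -0.29 to -0.10 with 1 array left out. Tat, the tyrosine aminotransferase, rose by 1.33 with passive SIgA (adjusted p 0.0039 in the limma fit), against 0.27 without, for an interaction of -1.06 ± 0.29. Slc9a3, the sodium proton exchanger of absorptive cells, fell by 1.10 without passive SIgA (adjusted p 0.0393), and its effect with it was above 0, at 0.23. Tsc22d3 and Sgk1, of the same list, had interactions of -0.01 ± 0.17 and -0.05 ± 0.23.

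Among sex-linked genes Xist ranged from 11.59 to 12.58 and Eif2s3y from 7.12 to 8.17 over the 8 arrays. The lowest Xist and the highest Eif2s3y were both in replicate 1 of the DSS group with passive SIgA, at 11.59 and 8.17. The part of this in the results was not tested.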
